A study of Mus musculus with 6 samples.

Results

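The TGF-β pathway was followed here through 9 genes, *Tgfb1*, *Tgfbr1*, *Tgfbr2*, *Smad2*, *Smad3*, *Smad4*, *Smad7*, *Ski* and *Skil*, chosen by name. All 9 were matched by symbol among the 32285 genes of the tables. In the pathway, the secreted ligand TGF-β1 binds the type II receptor TGFBR2, which recruits and phosphorylates the type I receptor TGFBR1. The active receptor phosphorylates SMAD2 and SMAD3, which enter the nucleus with SMAD4 and act on target genes. SMAD7 inhibits the receptor, and SKI and SnoN, the product of *Skil*, repress SMAD-dependent transcription, while *Smad7* and *Skil* are themselves known targets of the pathway. In CD8 T cells TGF-β is known for restraining effector function and for maintaining quiescence and tissue residency.

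CD8 T cells were sorted as CD45+CD3+CD8+Tomato+ from B16-OVA tumors and draining lymph nodes (LN) of mice 12 days after engraftment and profiled by single-cell RNA sequencing. B16-OVA is a mouse melanoma line, Tyr-/-, made to express ovalbumin and mCherry. Control mice were CD8-Cre Rosa26Tomato and CD8-IFNγRKO mice were CD8-Cre IFNgR1flox/flox Rosa26Tomato, so that all 4 groups carried the Cre and the Tomato reporter and only the CD8-IFNγRKO groups carried the floxed receptor gene. The Cre acts in mature CD8 T cells, and the other cells of the CD8-IFNγRKO mice keep the receptor. The series' design text calls the controls C57Bl6 WT, and the labels gave no age. Each tissue and genotype was 1 library pooled from 3 mice, which leaves no spread between mice, so no test was made. Values are unique molecular identifiers (UMIs) summed over the cells of a library and scaled to that library's total as CPM (UMIs per 1000000 UMIs). Intervals are 95% intervals that cover counting error only.

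After filtering, 7079 control and 8621 CD8-IFNγRKO tumor cells and 6641 control and 6731 CD8-IFNγRKO LN cells were kept, with 59219763, 93804083, 29934686 and 28841136 UMIs in total. Median UMIs per cell were 6313 in control and 9405 in CD8-IFNγRKO tumors, so depth moved with genotype in the tumor, and were 4051 and 3863 in the LN. *Cd3e*, *Cd8a* and *Cd8b1* were present in all 4 libraries. *Ifngr1*, the targeted gene, was at 718 CPM in control and 237 CPM in CD8-IFNγRKO tumor cells, and at 182 and 137 CPM in the LN. The deleted part of the gene is not given in the sources used here, so UMIs from outside it cannot be told apart from undeleted cells, and in the LN this check of the labels is weak. Pairs of libraries shared 51 to 82 cell barcodes, at most 1.235% of the smaller library.

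In tumors, *Tgfb1* and *Skil* were lower in CD8-IFNγRKO than in control cells in every cell cluster, while *Smad2* and *Smad4* lay close to the control level. The share of all genes lower in every cluster was not counted. *Tgfbr2* and *Smad7* were also lower in the pooled CD8-IFNγRKO tumor cells. Their intervals lay below 0 in 3 of 8 clusters for *Tgfbr2* and in 5 of 8 for *Smad7*. The cells led by *Tcf7* were among those with intervals that held 0. Their difference from the other tumor cells was within counting error with cells thinned to equal depth, where fewer UMIs remain. The difference of *Smad7* was also smaller there. In the LN no member was past 1.5-fold between genotypes. Between tissues, *Tgfb1* was higher in tumor cells, whereas the type II receptor, *Smad3*, *Smad4*, *Smad7* and *Ski* were lower there in both genotypes. LN cells also had higher levels of naive-like genes, so tissue and cell state cannot be told apart.

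The ligand gene *Tgfb1* (chr7:25687002-25705077, mouse build GRCm38) was read at 276 CPM in control tumor cells and 200.4 CPM in CD8-IFNγRKO tumor cells, and at 139 and 143 CPM in control and CD8-IFNγRKO LN cells. Both tumor libraries were above both LN libraries, and the control tumor was the highest. The receptor gene *Tgfbr2* (chr9:116087695-116175363) had the opposite order of tissues, with 110 CPM in control and 88.4 CPM in CD8-IFNγRKO tumor cells against 189 and 213 CPM in the LN. *Tgfbr1* (chr4:47353222-47414926) was sparse, at 4.24 CPM in both tumor libraries (251 and 398 UMIs) and at 12.2 CPM in control and 11.7 CPM in CD8-IFNγRKO LN cells. Levels are compared within a gene and not between genes, which differ in how well they are captured.

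The stretch just before the start of transcription is shown for the ligand and the receptor which had opposite orders of the tissues, and for *Smad3* (chr9:63646766-63757994), a receptor-regulated *Smad* read at few UMIs in the tumor and lower there than in the LN. The sequences are the 250 bases before the RefSeq start in GRCm38.p6, 5′ to 3′ on the strand of the gene, at chr7:25686752-25687001 (plus), chr9:116175364-116175613 (minus) and chr9:63757995-63758244 (minus). Capitals mark the letters of a searched motif.
Tgfb1 promoter: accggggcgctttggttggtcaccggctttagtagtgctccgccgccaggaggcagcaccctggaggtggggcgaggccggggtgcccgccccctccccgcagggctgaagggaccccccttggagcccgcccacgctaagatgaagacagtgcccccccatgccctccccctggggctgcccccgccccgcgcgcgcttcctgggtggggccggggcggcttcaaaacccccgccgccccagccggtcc
Tgfbr2 promoter: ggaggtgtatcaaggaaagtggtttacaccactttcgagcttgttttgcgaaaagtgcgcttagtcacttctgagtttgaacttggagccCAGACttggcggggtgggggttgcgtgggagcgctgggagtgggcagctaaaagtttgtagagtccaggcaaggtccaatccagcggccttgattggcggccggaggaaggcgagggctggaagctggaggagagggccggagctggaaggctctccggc
Smad3 promoter: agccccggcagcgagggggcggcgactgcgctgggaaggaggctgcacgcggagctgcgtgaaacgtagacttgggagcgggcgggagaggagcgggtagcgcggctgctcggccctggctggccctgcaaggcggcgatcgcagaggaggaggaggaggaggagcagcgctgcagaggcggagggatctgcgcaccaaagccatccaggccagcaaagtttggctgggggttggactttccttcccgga

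Both strands were searched for CAGAC, a SMAD-binding element, and its palindromic form GTCTAGAC. Among 32851 mouse promoter stretches of this length, 42.2% held CAGAC and 0.167% GTCTAGAC. The 6 stretches on hand for *Tgfb1*, *Tgfbr1* (2 starts), *Tgfbr2*, *Smad3* and *Ski* held no GTCTAGAC. CAGAC stood once in *Tgfbr2* (position −160 from the start) and once before the second start of *Tgfbr1*. A match is a description of letters, and its absence from these windows says nothing about binding.

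The receptor-activated *Smad2* (chr18:76241090-76311748) was at 35.1 CPM in control and 34.8 CPM in CD8-IFNγRKO tumor cells and at 49.6 and 52.4 CPM in the LN. *Smad3*, the other receptor-activated member, was at 1.42 CPM (84 UMIs) in control and 2.45 CPM (230 UMIs) in CD8-IFNγRKO tumor cells and at 9.09 and 10.9 CPM in the LN. The common partner *Smad4* (chr18:73634790-73703791) was at 26.3 and 25.7 CPM in control and CD8-IFNγRKO tumor cells and at 51.8 and 56.4 CPM in the LN. All 3 signal-carrying *Smad* genes were lower in both tumor libraries than in both LN libraries.

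Among the inhibitors, *Smad7* (chr18:75367365-75395935) was at 64.8 CPM in control and 48.2 CPM in CD8-IFNγRKO tumor cells and at 181 and 204 CPM in the LN. *Ski* (chr4:155154075-155222535) was at 10.0 and 7.98 CPM in control and CD8-IFNγRKO tumor cells and at 19.2 and 22.3 CPM in the LN. *Skil* (chr3:31095058-31122923) was at 79.1 CPM in control and 51.0 CPM in CD8-IFNγRKO tumor cells, and at 42.2 and 47.8 CPM in the LN. *Smad7* and *Ski* thus had their lowest level in CD8-IFNγRKO tumor cells, and *Skil* its highest level in control tumor cells with the other 3 libraries close together.

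**Figure D1:**
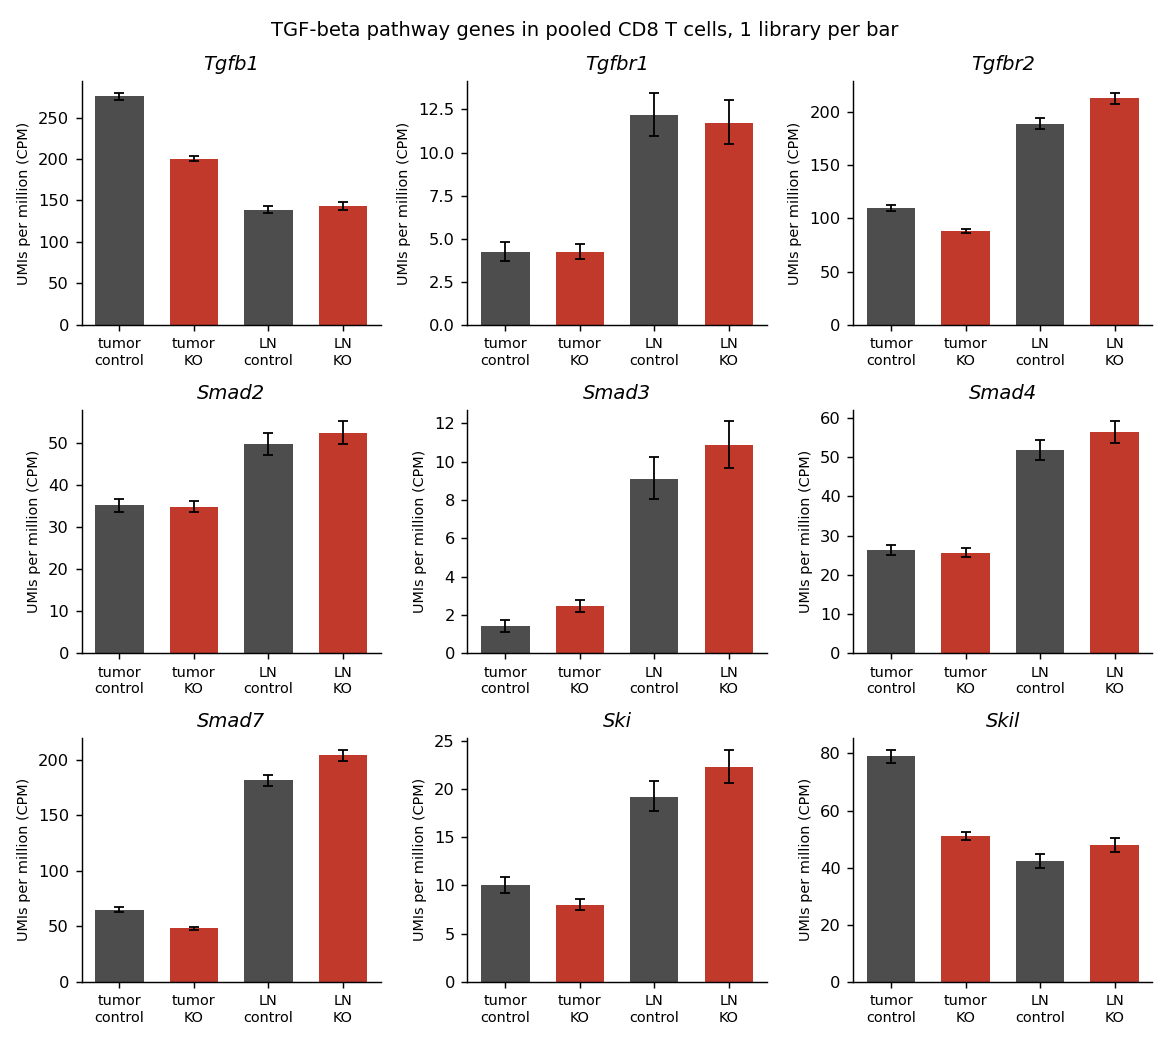
CPM of the 9 genes (vertical axis, from 0, its own scale per gene) in control (grey) and CD8-IFNγRKO (red) tumor and LN libraries. Each bar is 1 library of 3 pooled mice and each whisker its exact 95% counting interval. *Tgfb1* is highest in the control tumor at 276 CPM, and *Skil* stands apart there at 79.1 CPM.

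The first comparison asked how the pathway genes differ in the tumor when CD8 T cells lack IFNγ sensing. *Skil* was 1.55-fold lower in CD8-IFNγRKO than in control tumor-infiltrating lymphocytes (TILs), a log2 ratio of −0.63 (95% interval −0.69 to −0.57). *Tgfb1* was 1.38-fold lower at −0.46 (−0.49 to −0.43), *Smad7* 1.34-fold lower at −0.43 (−0.49 to −0.36) and *Tgfbr2* 1.24-fold lower at −0.31 (−0.36 to −0.26). *Smad2* at −0.01 (−0.09 to 0.07) and *Smad4* at −0.04 (−0.13 to 0.06) had intervals that held 0. Of the 9 genes, 6 had at least 100 UMIs over both libraries and a mean of at least 10 CPM. *Skil* was the 1 of these 6 past 1.5-fold, beside a background of 8.82% of 7498 genes past that size, 5.13% higher and 3.68% lower. The interval of *Skil* reached inside 1.5-fold, and its ratio was under that size in 2 of 11 settings, at −0.55 with 10 CPM added before the log and at −0.40 with clusters made without alignment and weighted alike. The median log2 ratio was −0.37 over the 6 and 0.02 over all 7498 genes, and 3.03% of genes had a lower ratio than *Skil* and 5.92% than *Tgfb1*.

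The 3 genes below the level minimum in the tumor were *Ski*, *Tgfbr1* and *Smad3*. *Ski* was at −0.33 (−0.48 to −0.17) and *Tgfbr1* at 0.00 (−0.23 to 0.24). *Smad3* was the only member higher in CD8-IFNγRKO tumor cells with an interval above 0, at 0.79 (0.42 to 1.17), and with so few UMIs its ratio ran from 0.13 with 10 CPM added before the log to 1.11 with every cell weighted alike. When cells were thinned to 1600 UMIs each, which brings both genotypes to the same depth, the ratio of *Smad7* was −0.19, that of *Ski* −0.17, and that of *Skil* −0.69. Thinning draws UMIs at random. Another draw gave *Ski* −0.62 (−1.05 to −0.19) in the tumor cells outside the *Tcf7*-led cluster, so its thinned ratio depends on the draw.

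The second comparison was the same contrast in the LN. None of the 8 members with enough UMIs was past 1.5-fold, where 0.434% of 7372 genes were, 0.149% higher and 0.285% lower. *Skil* was at 0.18 (0.07 to 0.29), *Tgfbr2* at 0.17 (0.12 to 0.22), *Smad7* at 0.17 (0.11 to 0.22) and *Ski* at 0.21 (0.05 to 0.38), all slightly higher in CD8-IFNγRKO cells. *Tgfb1* was at 0.05 (−0.02 to 0.11), *Smad2* at 0.08 (−0.02 to 0.18), *Smad4* at 0.12 (0.02 to 0.22) and *Tgfbr1* at −0.05 (−0.27 to 0.16). *Smad3*, just under the level minimum, was at 0.26 (0.02 to 0.50). The median of the 8 was 0.15, against 0.03 over all genes.

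The genotype ratio in the tumor minus that in the LN was −0.81 for *Skil* (counting interval −0.94 to −0.69), −0.60 for *Smad7* (−0.68 to −0.51), −0.54 for *Ski* (−0.77 to −0.32), −0.51 for *Tgfb1* (−0.58 to −0.44) and −0.48 for *Tgfbr2* (−0.55 to −0.41). It was 0.53 for *Smad3* (0.10 to 0.96), −0.16 for *Smad4* (−0.29 to −0.02), −0.09 for *Smad2* (−0.22 to 0.04) and 0.05 for *Tgfbr1* (−0.26 to 0.37). With all cells thinned to 1600 UMIs, a setting chosen after seeing the data, the difference was −0.96 for *Skil* (−1.19 to −0.73), −0.49 for *Tgfb1* (−0.62 to −0.36), −0.45 for *Tgfbr2* (−0.59 to −0.31) and −0.36 for *Smad7* (−0.53 to −0.19). In this draw *Ski* was at −0.18 (−0.65 to 0.29), and the intervals of *Smad2*, *Smad3*, *Smad4* and *Tgfbr1* also held 0. The tumor ratio of *Ski* was further from 0 in the other draw given above, so its value at equal depth is not settled. *Skil*, *Tgfb1*, *Tgfbr2* and *Smad7* thus had a lower genotype ratio in the tumor than in the LN beyond counting error at both depths. Neither the spread between mice nor the share of all genes with such a difference was measured.

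**Figure D2:**
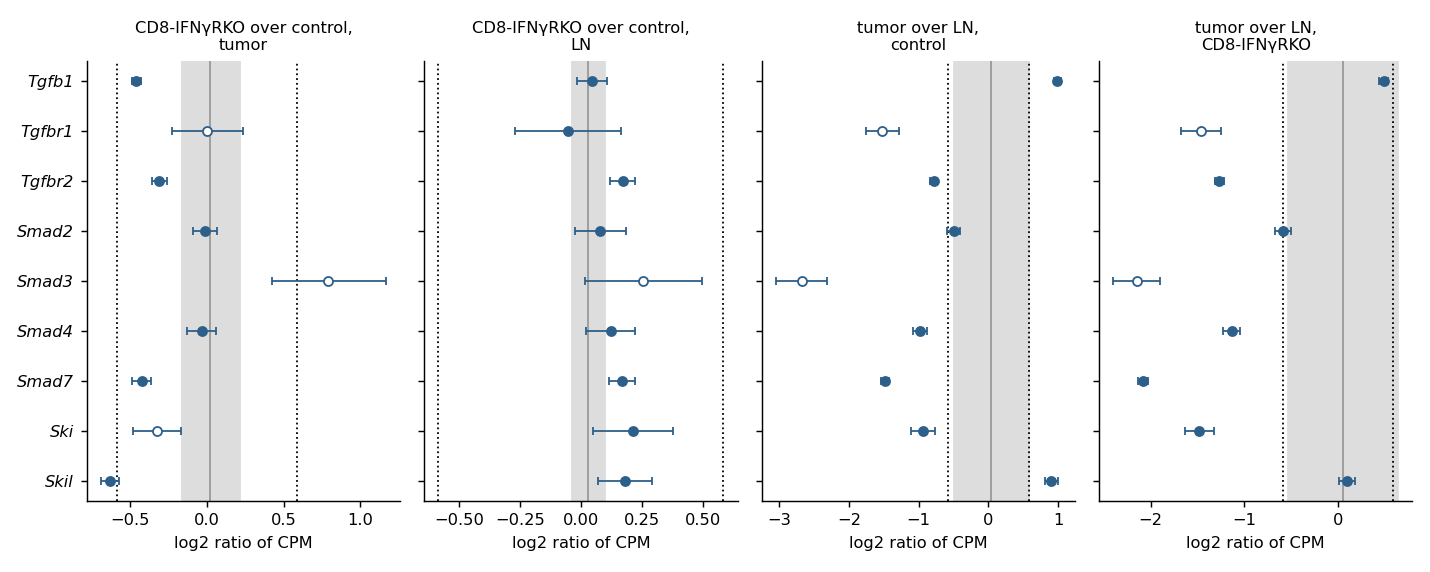
Log2 ratios of CPM (horizontal axes, each with its own range) for the 9 genes in the 4 comparisons. Points are libraries compared 1 to 1 with exact 95% counting intervals, open where the gene was under the level minimum. Dotted lines mark 1.5-fold, the grey line is the median of all genes with enough UMIs and the grey band their middle 50%. In the tumor *Skil*, *Tgfb1*, *Smad7* and *Tgfbr2* lie left of the band, and between tissues *Tgfb1* and *Skil* lie right of 0 at 0.99 and 0.90 in control cells. The 0.09 of *Skil* in CD8-IFNγRKO cells turns negative under other scalings of the libraries.

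The other comparisons asked how TILs differed from LN cells of the same genotype. They share their libraries with the comparisons above, so their values are not independent of them. Summed levels of 11 naive-like genes were 5994 CPM in control and 6225 CPM in CD8-IFNγRKO LN cells, against 433 and 495 CPM in the tumor. *Pdcd1* was at 0.902 and 1.04 CPM in the LN against 819 and 619 CPM in the tumor. Tissue and cell state therefore cannot be told apart in these ratios. Of the 7 members with enough UMIs in control cells, 6 were past 1.5-fold, 2 higher and 4 lower in the tumor, where 46.3% of 7609 genes were past it, 25.1% higher and 21.3% lower. Higher in the control tumor were *Tgfb1* by 1.99-fold, at 0.99 (0.94 to 1.04), and *Skil* by 1.87-fold, at 0.90 (0.81 to 1.00). Lower in the control tumor were *Smad7* by 2.80-fold, at −1.48 (−1.54 to −1.42), *Smad4* by 1.97-fold, at −0.98 (−1.08 to −0.87), *Ski* by 1.92-fold, at −0.94 (−1.11 to −0.77), and *Tgfbr2* by 1.72-fold, at −0.78 (−0.84 to −0.73). *Smad2* was at −0.50 (−0.59 to −0.40). Under the level minimum, *Smad3* was 6.41-fold lower (−2.68, −3.05 to −2.32) and *Tgfbr1* 2.87-fold lower (−1.52, −1.76 to −1.28).

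In CD8-IFNγRKO cells 5 of 7 members were past 1.5-fold and all 5 were lower in the tumor, where 50.3% of 7672 genes were past it, 26.8% higher and 23.4% lower. *Smad7* was 4.22-fold lower at −2.08 (−2.14 to −2.02), *Ski* 2.79-fold lower at −1.48 (−1.64 to −1.33), *Tgfbr2* 2.41-fold lower at −1.27 (−1.31 to −1.22) and *Smad4* 2.20-fold lower at −1.14 (−1.23 to −1.04). *Smad2* was at the limit, with a log2 ratio of −0.59 (−0.68 to −0.50). *Tgfb1* was higher in the tumor by 1.40-fold, at 0.48 (0.43 to 0.53). *Skil* was at 0.09 (0.01 to 0.18), and turned to −0.12 with the median ratio set to no change and to −0.17 with ribosomal, TCR, mitochondrial and heat shock genes left out of the total. *Smad3* and *Tgfbr1*, under the level minimum, were 4.43-fold and 2.76-fold lower. Genes with a mean of at least 50 CPM had a median log2 ratio between tissues of 0.19 in control and 0.21 in CD8-IFNγRKO cells. Against these, *Tgfb1* was still higher in the tumor, at 0.80 in control and 0.27 in CD8-IFNγRKO cells.

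Tumor cells fell into 8 clusters (T0 to T7) that were made without the pathway genes. T0, the largest with 3597 control and 3837 CD8-IFNγRKO cells, was led by granzyme genes such as *Gzmd*, *Gzme* and *Gzmg*. T1 was led by the mitotic genes *Ccnb2* and *Cdc20*, T3 (772 and 920 cells) by *Tcf7*, *Klf3* and *S1pr1*, T4 by the interferon-stimulated *Ifit1* and *Rsad2*, T5 by *Fos*, *Dusp1* and *Jun*, T6 (238 and 361 cells) by *Xcl1*, *Ccl1* and *Crtam*, and T7 by histone genes. T2 was a low-UMI cluster with medians of 1021 and 1906 UMIs.

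*Tgfb1* was highest in the *Xcl1*-led T6, at 451 CPM in control and 288 CPM in CD8-IFNγRKO cells, and lowest in the *Fos*-led T5, at 200.3 and 162 CPM. CD8-IFNγRKO cells were lower in 8 of 8 clusters, by −0.30 in T5 to −0.65 in T6, and each of the 8 intervals lay below 0. *Skil* was likewise lower in CD8-IFNγRKO cells in 8 of 8 clusters, from −0.43 in T3 (94.3 against 70.2 CPM) to −0.74 in T6 (81.2 against 48.5 CPM), with 8 intervals below 0. In T0 the control and CD8-IFNγRKO levels were 80.7 and 51.1 CPM for *Skil* and 283 and 202 CPM for *Tgfb1*. The lower levels in the pooled tumor cells were therefore also present within each cluster, T2 and T5 included. The share of all genes with intervals below 0 in all 8 clusters was not counted.

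*Tgfbr2* was highest in the *Tcf7*-led T3, with 168 CPM in each genotype, a log2 ratio of −0.00 (−0.16 to 0.16). In T0 it was at 108 CPM in control and 84.8 CPM in CD8-IFNγRKO cells, −0.35 (−0.41 to −0.29). *Smad7* in T3 was at 103 CPM in control and 100.3 CPM in CD8-IFNγRKO cells, −0.03 (−0.24 to 0.17), but in T0 at 62.6 and 46.3 CPM, −0.44 (−0.52 to −0.35). The largest gap of *Smad7* was in T6, with 103 CPM in control and 59.0 CPM in CD8-IFNγRKO cells, −0.80 (−1.08 to −0.51). Intervals lay below 0 in 3 of 8 clusters for *Tgfbr2* and in 5 of 8 for *Smad7*, so an interval that held 0 was not particular to T3. Taking T3 against all other tumor cells, the genotype ratio was 0.33 higher in T3 for *Tgfbr2* (counting interval 0.16 to 0.50) and 0.42 higher for *Smad7* (0.21 to 0.63). For *Tgfb1* this difference was 0.06 (−0.09 to 0.21) and for *Skil* 0.22 (−0.02 to 0.45). Depth moved with this result: median UMIs were 3638 in control and 3719.5 in CD8-IFNγRKO cells of T3, but 8124 and 12786 in T0. With all cells thinned to 1600 UMIs the difference was 0.25 for *Tgfbr2* (−0.03 to 0.53) and 0.10 for *Smad7* (−0.27 to 0.47), and both intervals held 0. Thinning discards UMIs and leaves out cells under 1600 UMIs, 700 in the control and 278 in the CD8-IFNγRKO tumor. Its intervals are therefore wider, and an interval that holds 0 does not show that a difference is absent. At that depth the cells outside T3 had genotype ratios of −0.49 (−0.57 to −0.41) for *Tgfb1*, −0.78 (−0.93 to −0.62) for *Skil*, −0.27 (−0.39 to −0.15) for *Tgfbr2* and −0.26 (−0.43 to −0.10) for *Smad7*, all still below 0. In T3 the ratios at that depth were −0.31 (−0.57 to −0.05) for *Tgfb1* and −0.59 (−0.99 to −0.20) for *Skil*. They were −0.02 (−0.28 to 0.24) for *Tgfbr2* and −0.16 (−0.50 to 0.18) for *Smad7*. *Tgfbr2* and *Smad7* were singled out from the 9 after their values were seen.

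T3 had the highest level of 8 of 9 members in CD8-IFNγRKO cells and of 7 of 9 in control cells, where 20.1% and 16.3% of the 7498 genes with enough UMIs were highest in T3. The 9 include *Tgfbr1*, *Smad3* and *Ski*, which were under the level minimum that those 7498 genes met. Some of the highest levels were near ties. In control cells *Smad7* was at 102.7 CPM in T3 and 102.5 CPM in T6, and *Skil* at 94.3 CPM in T3 and 91.4 CPM in T2. Against the other tumor cells of the same genotype, *Tgfbr2* in T3 was higher by 0.66 (0.54 to 0.79) in control and 0.99 (0.88 to 1.10) in CD8-IFNγRKO cells, and *Tgfbr1* by 1.29 and 1.27. *Smad4* was higher in T3 by 0.73 in control and 0.70 in CD8-IFNγRKO cells. *Tgfb1* was the exception in both genotypes, at −0.34 and −0.28, and *Smad2* in control cells was highest in T5. *Smad3* was concentrated in 2 clusters: it was at 7.81 CPM in control and 13.5 CPM in CD8-IFNγRKO cells in T3 and at 3.96 and 11.1 CPM in T6, but at 0.913 and 1.35 CPM in T0. Its genotype interval lay above 0 in T3, T4 and T6. *Smad2* and *Smad4* had intervals that held 0 in all 8 clusters.

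**Figure D3:**
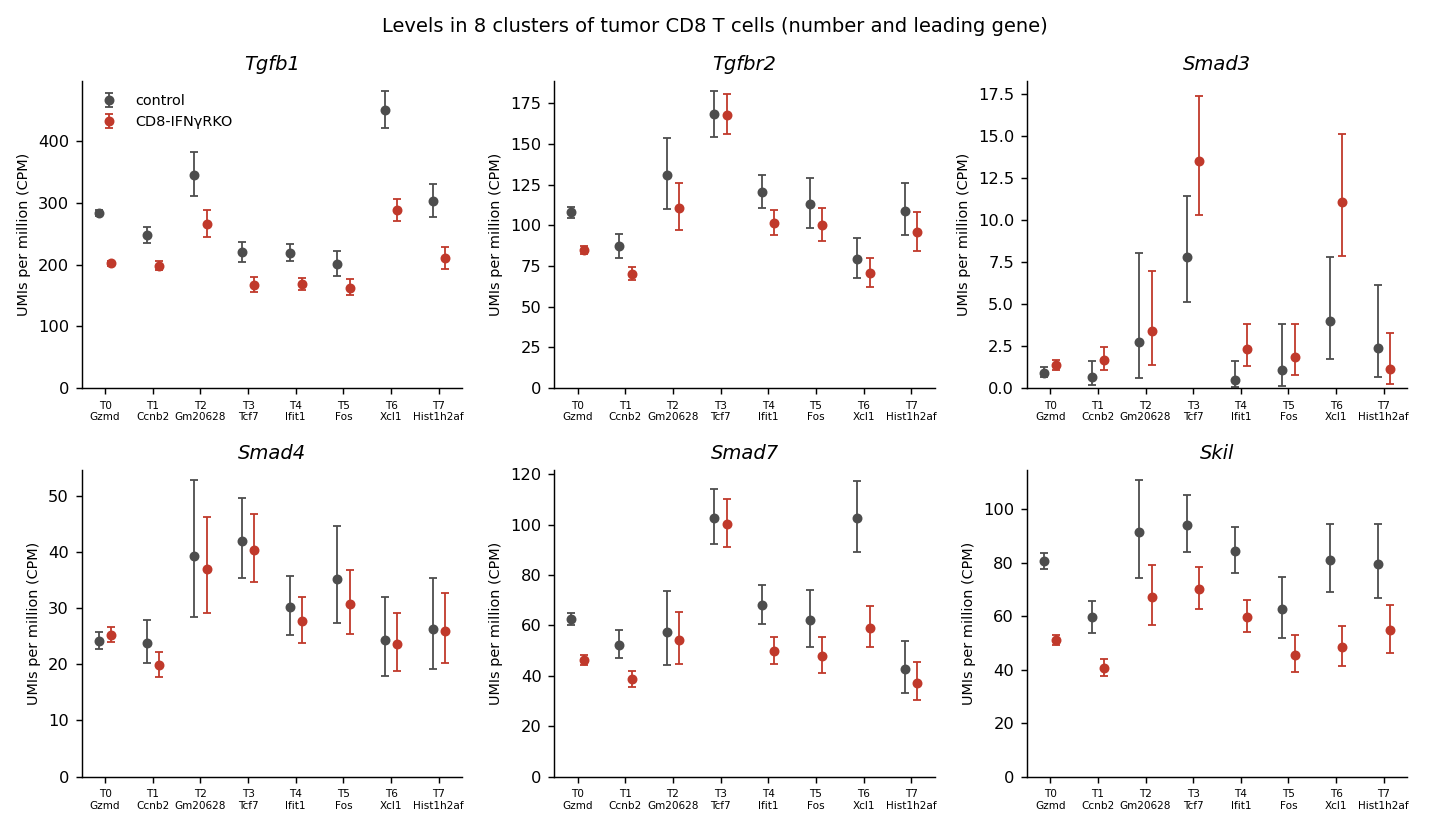
CPM of 6 of the genes (vertical axes, from 0) in the 8 tumor clusters, named by number and leading gene, in control (grey) and CD8-IFNγRKO (red) cells. Points are the pooled cells of 1 library and whiskers exact 95% counting intervals. *Tgfb1* and *Skil* are lower in red in each cluster, and *Tgfbr2* and *Smad7* nearly coincide in T3.

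LN cells fell into 7 clusters of at least 100 cells per genotype, L0 to L6, and 1 of 16 control and 13 CD8-IFNγRKO cells that is not described. The largest, L0 (3824 and 3941 cells), was led by *Ccr9*, *Igfbp4* and *Actn2*, L1 by *Isg15* and *Ifit3*, L2 by *Dnah8* and *Itga4*, L3 by *Ccl5*, *Ccl4* and *Gzmm*, L4 by *Tnfrsf9*, *Nfkbid* and *Relb*, and L6 by *S100a4* and *Ctla4*. L5 was led by *Hbb-bs*, a hemoglobin gene, and had a median of 1251 UMIs in control cells. *Tgfb1* was highest in the *Tnfrsf9*-led L4, at 216 CPM in control and 222 CPM in CD8-IFNγRKO cells, above the 127 and 135 CPM of L0. *Smad3* was highest in the *Ccl5*-led L3, at 18.2 and 20.6 CPM, against 7.07 and 8.92 CPM in L0. *Smad7* was higher in CD8-IFNγRKO cells in 7 of 7 clusters, by 0.14 to 0.40, and 3 of the 7 intervals lay above 0. *Tgfbr2* had 3 intervals above 0 and none below, with its largest ratio in the *Isg15*-led L1, 173 CPM in control against 219.6 CPM in CD8-IFNγRKO cells, 0.35 (0.18 to 0.52).

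**Figure D4:**
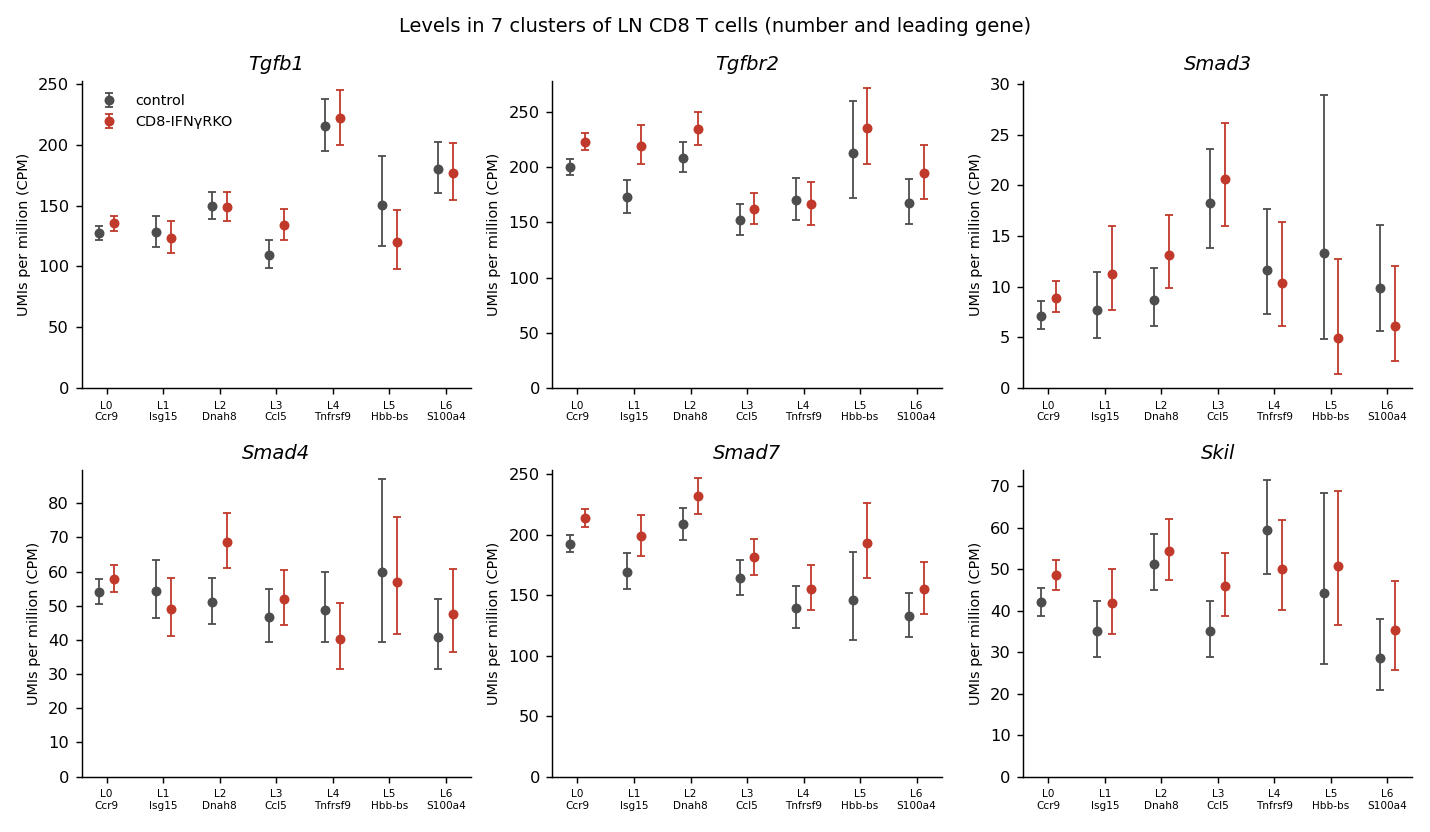
CPM of the same 6 genes (vertical axes, from 0) in the 7 LN clusters, with the same colors, points and 95% counting intervals. *Tgfb1* peaks in L4 at 216 and 222 CPM and *Smad3* in L3 at 18.2 and 20.6 CPM, and the genotypes lie close together.

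TCR sequences from the same tumors allowed the levels to be read within clones, here cells of 1 library with the same productive α and β chain. Clones of at least 50 cells numbered 10 in control (3337 cells) and 21 in CD8-IFNγRKO tumors (5223 cells). The mouse of each clone is not given in the files, so clones are not replicates, and the smallest counts of a clone were 16 UMIs for *Skil* and 57 for *Tgfb1*. *Skil* ranged from 66.8 to 97.4 CPM with a median of 82.1 over control clones and from 32.9 to 75.0 CPM with a median of 50.4 over CD8-IFNγRKO clones, and 18 of the 21 were below every control clone. *Tgfb1* ranged from 207 to 368 CPM (median 270.2) and from 151 to 227 CPM (median 196), and 14 of 21 were below every control clone. For both genes the ranges overlapped in part. For *Smad7* and *Tgfbr2* 13 of 21 were below every control clone, with 3 clones of *Tgfbr2* and 1 of *Smad7* above every control clone. More than 50% of the CD8-IFNγRKO clones lay below every control clone for 7.99% of the 7498 genes, and above every control clone for 12.8%.

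Clones differed in their share of T3 cells. The CD8-IFNγRKO clone of 149 cells, 58.4% of them in T3, had 196 CPM of *Tgfbr2*, 83.0 CPM of *Smad7*, 75.0 CPM of *Skil* and 16.0 CPM of *Smad3*, each the highest or the second highest of its library. Its *Smad3* level rested on 10 UMIs. The clone of 71 cells, 63.4% in T3, had 153 CPM of *Tgfbr2* (49 UMIs), 75.2 CPM of *Smad7* (24 UMIs) and 18.8 CPM of *Smad3* (6 UMIs). *Skil* in that clone was at 50.1 CPM (16 UMIs). The control clone richest in T3, of 59 cells with 35.6% in T3, had 124 CPM of *Tgfbr2*. Its *Smad7* was at 60.1 CPM (18 UMIs), below the median of 69.1 CPM over the control clones. Its *Skil*, at 66.8 CPM (20 UMIs), was the lowest of its library. It had 0 UMIs of *Smad3*, as did other control clones with a smaller share of T3. A clone of 130 cells with only 1.54% in T3 also had 151 CPM of *Tgfbr2*, above every control clone. The 2 largest CD8-IFNγRKO clones, of 1463 and 1198 cells, had 80.9 and 78.2 CPM of *Tgfbr2* and 189.8 and 215 CPM of *Tgfb1*, and the 2 largest control clones, of 1104 and 1007 cells, had 118 and 97.1 CPM of *Tgfbr2* and 268 and 269 CPM of *Tgfb1*. The gap between genotypes was thus present between their largest clones.

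**Figure D5:**
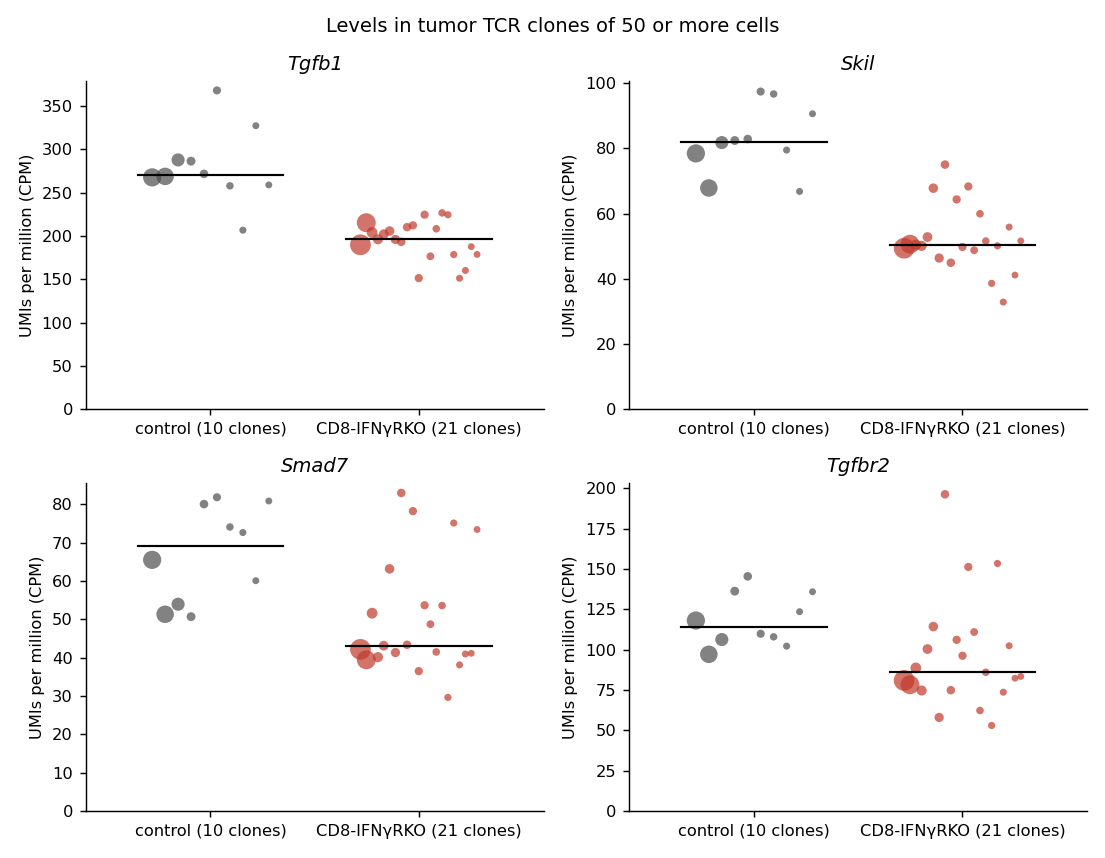
CPM of 4 of the genes (vertical axes, from 0) in each tumor clone of at least 50 cells, from the largest on the left to the smallest on the right within a genotype. The area of a point grows with the number of cells of the clone and the line is the median of the clones. The medians of *Tgfb1* are 270.2 CPM in control and 196 CPM in CD8-IFNγRKO clones, and those of *Skil* 82.1 and 50.4 CPM.

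RNA of other cells can reach a T cell's droplet, and several of these make *Tgfb1*. All 15 genes of a macrophage and dendritic cell list were detected in both tumor libraries, with a summed level of 339 CPM in control and 287 CPM in CD8-IFNγRKO cells, and 91.8 and 96.0 CPM in the LN. Most of the tumor sum was *Cst3*, at 231 and 204 CPM, and *Fcer1g*, at 65.7 and 48.6 CPM. No other gene of the list was above 14.2 CPM in the tumor. *Lyz2*, *C1qa*, *C1qb*, *C1qc*, *Csf1r* and *Apoe* were at 1.27 CPM or less there. Before these sums, 24 control and 15 CD8-IFNγRKO cells led by such genes had been removed, and *Tgfb1* in them was at 309 and 198 CPM (86 and 38 UMIs), near the level of the kept cells. Each of these cells also had UMIs of *Cd2*, *Cd8a* and *Cd8b1*. The level is therefore not that of macrophages or dendritic cells alone. *C1qa* and *C1qc* were at 0 in the CD8-IFNγRKO LN library. Summed melanoma genes were at 3.92 and 2.75 CPM and fibroblast or endothelial genes at 4.58 and 4.46 CPM in the tumor libraries, with *Col3a1* and *Dcn* at 0 in all 4 libraries and 49.8 and 48.5 CPM of the list in the LN. Summed B cell genes were at 7.57 and 18.9 CPM in the tumor and 245 and 256 CPM in the LN, natural killer cell genes at 191 and 171 CPM and 35.4 and 39.5 CPM, CD4 or regulatory T cell genes at 90.0 and 103 CPM and 27.2 and 34.4 CPM, and platelet or red cell genes at 2.57 CPM or less. Few genes made up most of these sums. They were *Klre1* (160 and 130 CPM) for natural killer cells and *Il2ra* (44.4 and 57.6 CPM) with *Ikzf2* (39.5 and 39.0 CPM) for CD4 or regulatory T cells, all in the tumor. In the LN they were *Pecam1* (49.6 and 48.3 CPM) for fibroblasts or endothelium and *Ighm* (223 and 228 CPM) for B cells. The part of the transcripts of all these lists in the differences was not tested.

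The other genes of the pathway were read from lists chosen by function. Of genes for ligands and their activation, 3 of 18 had enough UMIs in the tumor. *Furin*, which encodes a protease that cleaves the TGF-β1 precursor, was lower in CD8-IFNγRKO cells, at 15.2 against 28.2 CPM, −0.89 (−0.99 to −0.79). Among 12 regulators with enough UMIs 2 were past 1.5-fold, both lower: the corepressor genes *Tgif1*, at 32.4 against 64.9 CPM (−1.0), and *Tgif2*, at 9.20 against 13.9 CPM (−0.60). Of all genes 3.68% were that much lower, and the median of the 12 was −0.04 against 0.02 over all genes. No nuclear partner (9 with enough UMIs), gene of the SMAD-independent branches (8) or other *Smad* (1) was past it in the tumor, and no other receptor had enough UMIs. In the LN none of these genes was past 1.5-fold between genotypes.

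Of 8 genes known to rise with TGF-β in T cells that had enough UMIs, 4 were past 1.5-fold lower in CD8-IFNγRKO tumor cells and none higher, beside 3.68% of all genes lower and 5.13% higher, with a list median of −0.57 against 0.02 over all genes. The 4 were *Skil*, *Tgif1*, *Ccr8*, a chemokine receptor gene, at 18.8 against 39.9 CPM (−1.09), and *Nedd9*, an adhesion scaffold gene, at 120.4 against 203 CPM (−0.76). *Smad7* and *Skil* are also in this list, so it is not separate from the members. *Tgif1* was already counted among the regulators, and the list was chosen with earlier results of these data known. *Pmepa1*, a feedback inhibitor of the pathway, was at 17.6 against 13.9 CPM, 0.35 (0.23 to 0.47), the other way. Of 10 such genes known to fall with TGF-β, 2 were past 1.5-fold higher and 1 lower, beside the same shares of all genes, with a list median of 0.14 against 0.02. *Gzma*, encoding a granzyme, was higher at 174 against 44.7 CPM (1.96, 1.90 to 2.02), *Myc* was higher at 95.1 against 42.6 CPM (1.16), and *Fasl*, encoding a death ligand, was lower at 74.0 against 116 CPM (−0.65).

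Between tissues, *Itgae*, which encodes the CD103 integrin chain that TGF-β is known to induce, was at 86.2 CPM in control and 85.1 CPM in CD8-IFNγRKO LN cells and at 0.608 and 0.426 CPM in tumor cells (36 and 40 UMIs). In control cells that is a log2 ratio of −7.15 (−7.67 to −6.67). Within the control LN, *Itgae* ran from 11.8 CPM in the *Ccl5*-led L3 to 201 CPM in L6, with 95.1 CPM in L0, the largest cluster. The accessory receptor gene *Tgfbr3*, encoding betaglycan, was at 20.8 and 20.9 CPM in the LN and 1.15 and 0.864 CPM in the tumor. The ubiquitin ligase genes *Nedd4l* and *Smurf2*, which act on receptors and SMADs, were lower in the tumor in both genotypes, *Nedd4l* at 1.06 against 30.1 CPM and *Smurf2* at 6.42 against 33.5 CPM in control cells. *Itgav*, which encodes 1 chain of integrins that release active TGF-β, was higher, at 96.6 against 11.8 CPM in control and 86.6 against 12.4 CPM in CD8-IFNγRKO cells. Of the β chain genes in the same list, *Itgb8* was at 0.675 and 0.565 CPM in control and CD8-IFNγRKO tumor cells, and *Itgb6* at 0 UMIs. *Zeb2*, a SMAD-binding repressor gene, was at 49.0 against 0.534 CPM and *Fkbp1a*, whose product binds the type I receptor, at 500.1 against 169.9 CPM in control cells.

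Of the genes known to rise with TGF-β, 6 of 9 were past 1.5-fold higher and 3 lower in the control tumor, and 2 of 7 higher and 3 lower in the CD8-IFNγRKO tumor. Of all genes, 25.1% were higher and 21.3% lower in the control tumor and 26.8% and 23.4% in the CD8-IFNγRKO tumor. The smaller count in CD8-IFNγRKO cells came in part from the level minimum, since *Ccr8*, at 18.8 CPM in the tumor and 0.728 CPM in the LN, and *Itga1*, an integrin gene, at 17.2 CPM and 0 UMIs, lay under it there and were not counted. *Itga1* was at 24.7 against 0.20 CPM (6 UMIs in the LN), and the cell cycle inhibitor gene *Cdkn1a* at 95.6 against 2.34 CPM in control cells, so members of the list stood on both sides. Of 11 genes known to fall with TGF-β with enough UMIs, 6 were higher and 3 lower in the tumor in each genotype, with *Gzmb* at 3365 against 4.21 CPM and *S1pr1* at 7.29 against 205 CPM in control cells.

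Genes whose levels ran most like a member's were sought over 30 groups of at least 100 cells (a library and cluster each) among 2859 genes with a mean of at least 50 CPM. The groups share 4 libraries and 2 tissues, so the correlations are descriptions. For *Tgfbr2* the 3 genes with the highest Pearson r of log2(CPM + 1) were *Peli1* (0.97), *Pag1* (0.97) and *Apbb1ip* (0.97). For *Tgfb1* they were *Nfatc1* (0.89), *Orai1* (0.89) and *Copz1* (0.89), and for *Skil* *Tmem123* (0.83), *Vps37b* (0.82) and *Fam107b* (0.78).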

How the data were processed

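In all, 4 RNA libraries of the 10x 5′ kit and TCR libraries of both tumors were used. The authors aligned reads with Cell Ranger 6.0.0 (per the file headers) to mm10, and the deposited matrices hold whole UMI counts per gene and barcode. A cell needed 200 to 6000 detected genes, a mitochondrial share of 3% or less, under 20% of its UMIs from any single gene, and a UMI of *Cd2*, *Cd8a* and *Cd8b1*. Clusters were made per tissue on 3000 variable genes without TCR, mitochondrial, heat shock, sex-linked or pathway genes (15 principal components, a Harmony-like alignment of libraries, 20 neighbours, Louvain at resolution 0.4; scanpy 1.11.5, python-igraph 0.11.9, cell cycle genes from Seurat 5.3.0). Clusters led by 3 or more markers of another cell type were removed, and doublets were kept, with no caller run.

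Counts were summed per library, with exact Poisson intervals for CPM and exact conditional binomial intervals for log2 ratios (scipy 1.17.1). Differences of ratios have normal-approximation intervals. Past 1.5-fold is a rule of size over genes with 100 or more UMIs over both libraries and a mean of 10 CPM or more. On counts simulated with counting error alone for the tumor genotype comparison (11307 genes, 200 changed), intervals held the true ratio of 96.0% of changed genes. Such counts have no spread between cells, clones or mice, so this checked the calculation only. Named genes were the 9 members, up to 3 genes past 1.5-fold per direction of each other list, *Itgae*, the 3 genes most like *Tgfb1*, *Tgfbr2* and *Skil*, and genes leading clusters. *Pmepa1* between genotypes, *Itgb6*, *Itgb8*, single genes of the cell type lists, the clones, the T3 difference with its equal-depth version and the motifs were added after values were seen. The members and lists were chosen with earlier results of these data known. Sequences and coordinates are from RefSeq (GRCm38.p6, the build of the files), where 5 of 9 members had a promoter entry.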

Additional observations from a re-analysis of the deposited data

Results flagged for a closer look

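For 4 genes the genotype ratio had opposite signs in the 2 tissues with both counting intervals clear of 0, from 1 library of 3 pooled mice in each tissue and genotype. Of the other 5 genes, 4 also had opposite signs, but with an interval that held 0 in at least 1 tissue. The share of all genes that met this rule was not counted, so whether these counts are unusual is not known. The log2 ratio of CD8-IFNγRKO over control was −0.31 in the tumor and 0.17 in the LN for *Tgfbr2*, −0.43 and 0.17 for *Smad7*, −0.33 and 0.21 for *Ski*, and −0.63 and 0.18 for *Skil*. The difference between tissues was not tested, since no spread between mice was measured, and each of the LN ratios was under 1.5-fold. With cells thinned to 1600 UMIs *Ski* was at −0.17 in the tumor and 0.01 in the LN, and its difference between tissues was within counting error in that draw. Another random draw of the tumor cells gave *Ski* −0.62 (−1.05 to −0.19) outside T3 and −0.80 (−1.94 to 0.30) in T3. Its value at equal depth is therefore not settled.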

How the results depend on the processing

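The count of members past 1.5-fold between genotypes in the tumor went from 1 to 0 with 10 CPM added before the log (*Skil* at −0.55) and to 0 with the clusters weighted alike in both libraries and made without alignment (*Skil* at −0.40). It was 1 in the other 9 of 11 settings. Over the 11 settings *Tgfb1* ran from −0.48 to −0.30 and *Tgfbr2* from −0.33 to −0.23 in the tumor. The LN count was 0 in all 11 settings. Between tissues the signs of all members but *Skil* in CD8-IFNγRKO cells held in all 8 settings, and *Smad2* in CD8-IFNγRKO cells moved to the other side of 1.5-fold in 6 of 8. With no level minimum beyond 100 UMIs, 14.1% of genes were past 1.5-fold between genotypes in the tumor and 1.46% in the LN. Genes under about 10 CPM, *Smad3*, *Tgfbr1* and *Ski*, were limited by depth in the tumor. At equal depth, a setting chosen after seeing the data, the difference of *Tgfbr2* and *Smad7* between T3 and the other tumor cells was within counting error. That error is larger there because thinning discards UMIs. The differences themselves also shrank, from 0.42 to 0.10 for *Smad7* and from 0.33 to 0.25 for *Tgfbr2*. No paired analysis was possible because each tissue and genotype had 1 library and no result came from a test.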
